A study of Homo sapiens with 13 samples.

Results

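The locus of TSPAN8 and LGR5 on chromosome 12 carried 28 FOXA1 peaks in Ishikawa cells and 0 in Hec1A cells, of 68107 peaks listed for both lines together. The Hec1A list was much the shorter, with 13252 peaks against 54855 in Ishikawa. On chromosome 12 they held 614 and 2940 in the same order. Members are all listed peaks whose centre lies between 71.4 and 72.2 Mb of chromosome 12 in hg19, a window that holds TSPAN8 at about 71.52 to 71.55 Mb and LGR5 at about 71.83 to 71.98 Mb. The window was chosen from measured values, since it surrounds the Ishikawa peak with the highest findPeaks score among those that no Hec1A peak overlaps. The score of that peak, the other peak values of the same ChIP and the missing Hec1A peak are therefore given as descriptions, with no test. Gene positions are known here to 10 kb only, and distances to a gene carry an uncertainty of 5 kb on either side.

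FOXA1 was mapped with an antibody by ChIP-seq (sequencing of chromatin pulled down with the factor) in 2 human endometrial adenocarcinoma cell lines, Ishikawa and Hec1A, with no treatment or genotype named in the labels. For Ishikawa the labels list 6 FOXA1 ChIP and 2 input libraries, for Hec1A 3 and 2 of the same kinds, where input is chromatin that was not immunoprecipitated. ChIP libraries of a line were pooled before peaks were called, which gave 343739762 tags in Ishikawa and 143055568 tags in Hec1A, a ratio of 2.4. Each line thus has 1 list, and no value below has a replicate error.

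LGR5 is a cell-surface receptor for R-spondins, secreted proteins that strengthen Wnt signalling by removing the ubiquitin ligases ZNRF3 and RNF43 from the membrane. It is itself a Wnt target gene, marks stem cells of the intestinal epithelium, and is expressed in the epithelium of the endometrium. TSPAN8 is a tetraspanin, a membrane protein that organises integrins and other partners at the cell surface and is carried on exosomes of epithelial tumours. FOXA1 is a forkhead transcription factor that binds closed chromatin and prepares enhancers for steroid hormone receptors.

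Peak sequences were not read, as no hg19 genome was used. The promoters of TSPAN8 are shown because Ishikawa peaks lay near its given start. Peaks also lay near the given start of LGR5, but the promoter set used here held no LGR5 entry. RefSeq places 2 start regions of TSPAN8 in GRCh38.p14, on the minus strand, at chr12:71157950-71158249 and chr12:71157760-71158059. Each runs from 250 bases before to 50 bases after a start site, 5′ to 3′ in the direction of the gene. Capitals mark the forkhead letters TGTTTAC.
TSPAN8 start region 1: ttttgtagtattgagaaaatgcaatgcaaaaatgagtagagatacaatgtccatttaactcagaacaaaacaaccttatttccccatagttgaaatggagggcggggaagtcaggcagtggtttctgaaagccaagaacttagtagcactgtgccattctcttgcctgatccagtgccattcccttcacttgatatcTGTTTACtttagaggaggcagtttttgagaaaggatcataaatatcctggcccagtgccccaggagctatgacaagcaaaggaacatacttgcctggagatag
TSPAN8 start region 2: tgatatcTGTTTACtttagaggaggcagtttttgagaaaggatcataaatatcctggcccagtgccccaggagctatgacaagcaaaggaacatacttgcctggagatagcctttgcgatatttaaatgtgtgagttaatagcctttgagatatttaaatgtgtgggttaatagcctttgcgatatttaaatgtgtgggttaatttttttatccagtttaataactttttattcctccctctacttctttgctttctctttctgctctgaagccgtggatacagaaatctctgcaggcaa

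The regions start 190 bases apart and overlap, so both show the same match. It begins 53 bases before the first start site and 243 bases before the second. On either strand, TGTTTAC occurred in 1202 of 35116 promoters of the same length (3.42%), and the related letters TATTTAC in 939 of them (2.67%) but not in those of TSPAN8. Neither was found in the listed promoters of the neighbouring genes PTPRR, ZFC3H1, THAP2, TMEM19 and RAB21, which follow the order PTPRR, TSPAN8, LGR5, ZFC3H1, THAP2, TMEM19, RAB21 among the protein-coding genes of GRCh38.p14. A match says only that these letters are present.

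The strongest Ishikawa peak of the locus, at chr12:71849170-71849522, lay inside the given span of LGR5. Its centre was 19.3 kb past the given start of the gene, or 14.3 to 24.3 kb with the rounding of that position. Its signal, the number of tags in the peak per 10000000 tags, was 1179.2, which corresponds to about 40534 ChIP tags. The 2 pooled inputs gave 8 tags there, and the authors' fold over input was 571. The small input number sets the precision of that fold, whose 95% exact interval ran from 289.6 to 1322, and this interval covers counting error only. The authors' fold over the surrounding 10000 bp was 94.4.

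This peak had the highest score of all 54855 Ishikawa peaks, 11549, and no Hec1A partner, a partner being a peak that shares at least 1 bp. By signal it ranked second, after a peak on chromosome 17 at chr17:41747442-41747794 with 1267.5, which did have a Hec1A partner. It ranked 17 by fold over input and 184 by fold over the local region, so among these measures it stood first by score only. The score is a tag number under a limit of 17 per base, per the file headers. For this peak it came to 28.5% of its tags, against 92.9% for the next strongest peak of the locus. At the weaker peak chr12:71407980-71408332 it came to 109.5%, so the score is not strictly a share of the tags in the signal. The clonal fold, in which values above 1 mark tags stacked on few positions, was 0.49 at the strongest peak. No Ishikawa peak had a lower value, and the chromosome 7 peak named below had the same one. A value of 0.49 does not show that tags were free of stacking, as the score under the limit per base was far below the number of tags. The next peaks by score without a Hec1A partner were at chr7:47022419-47022771, with a score of 10752, and at chr18:31382842-31383194, with a score of 10725. The chromosome 7 peak had a lower signal, 1061.6, but higher folds, 1372.5 over input and 120.6 over the local region. The chromosome 18 peak had lower values, 711.6, 275.7 and 40.5 in the same order.

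**Figure D1:**
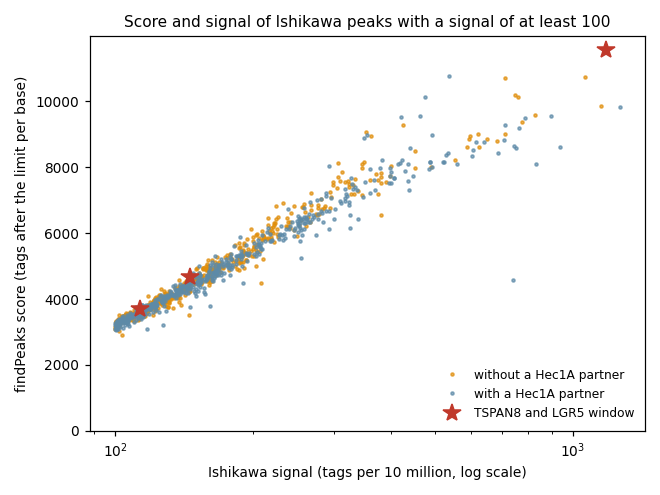
The findPeaks score (tags after the limit per base) is plotted against the Ishikawa signal (tags per 10000000, log scale) for the 1050 Ishikawa peaks with a signal of at least 100, coloured by whether a Hec1A peak overlaps them, with the 3 peaks of the TSPAN8 and LGR5 window as stars. The strongest peak of the window, at a signal of 1179.2 and a score of 11549, stands highest on the score axis but not farthest right.

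LGR5 carried a run of strong peaks. Its given span of 150 kb held 8 Ishikawa peaks, or 5.33 per 100 kb, and their summed signal was 1545, which is 78.7% of the signal of the locus. Most of this sum came from the strongest peak, at 1179.2, for which the locus was chosen. Of the 8 peaks of the locus with a signal of at least 30, 6 lay in this span, all within 93.5 kb and starting with the strongest. After the strongest peak, the next was at chr12:71872110-71872462, 22.9 kb further into the gene, with a signal of 145.9 and a fold over input of 47.2 (95% exact interval 27.0 to 91.3). A second summit lay 0.917 kb from it, at chr12:71873027-71873379, with a signal of 39.7 and a fold of only 4.44 over its surroundings, close to the fold of 4 that the authors required. The minimum distance between listed Ishikawa peaks was 706 bp.

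Farther into the LGR5 span, the peak at chr12:71897567-71897919 had a signal of 44.2 and that at chr12:71927069-71927421 one of 39.0, with folds over input of 14.2 and 12.6. The last peak of the span, at chr12:71942704-71943056, was stronger than both, with a signal of 66.5 and a fold over input of 43.0 (95% exact interval 19.7 to 117.2). It had the highest focus ratio of the 8, 0.951, where the focus ratio measures how tightly tags surround the peak centre. The remaining peaks of the span were weak. The one nearest to the given start of LGR5, at chr12:71832774-71833126 and 2.95 kb from it, had a signal of 12.2 and a fold over input of 6.72 (3.24 to 16.8). The one at chr12:71878308-71878660 had a signal of 18.1. The strongest signal in LGR5 thus lay away from the given start, beyond what the rounding of that start allows.

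**Figure D2:**
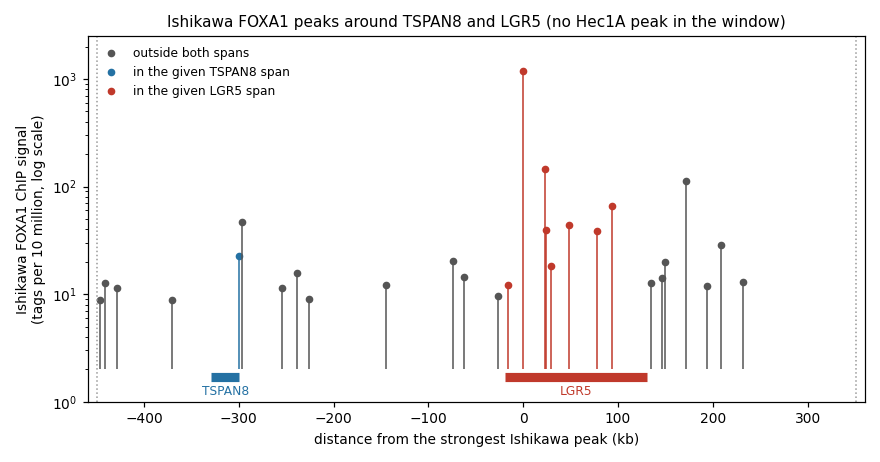
Each stem is 1 Ishikawa FOXA1 peak, placed by its distance in kb from the strongest peak, with its signal (tags per 10000000) on a log axis; bars mark the given spans of TSPAN8 and LGR5 and dotted lines the window. The peak at 0 kb, at 1179.2, stands 8.08 times above the next one, at 145.9, and 6 of the 8 peaks of at least 30 lie in the LGR5 span.

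TSPAN8 had a pair of peaks at its given start. Its span of 30 kb held 1 peak, at chr12:71549077-71549429, with a signal of 22.7. That peak had 3 input tags and a fold over input of 29.4, with a wide 95% exact interval of 10.0 to 142.7. The second peak of the pair lay 3.35 kb away, outside the given span, at chr12:71552431-71552783. It was the fifth strongest of the locus by score, with a signal of 47.3, a fold over input of 14.1 (8.21 to 26.5) and a focus ratio of 0.952. The centres were 0.747 kb inside and 2.61 kb outside the given start, and the rounding of that position does not allow either to be placed on the promoters printed above. The order of the pair depends on the measure: the outer peak had the higher signal, and the inner one the higher fold over input, with intervals that overlap.

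Between TSPAN8 and LGR5, an interval of 280 kb held 8 peaks, or 2.86 per 100 kb, with a median signal of 13.3 and 7.13% of the signal of the locus. The outer TSPAN8 peak is one of them, and the other 7 ranged from 9.05 to 20.3. Before TSPAN8, 120 kb held 4 peaks with signals of 8.87 to 12.6. Beyond the given end of LGR5, 220 kb held 7 peaks with a median of 14.1. Among these, the peak at chr12:72021323-72021675 stood apart, with a signal of 113.2, the third highest of the locus, and a fold over input of 31.3 (95% exact interval 18.6 to 57.3). It lay 172.2 kb from the strongest peak, on the side where ZFC3H1, a zinc-finger protein of nuclear RNA decay, is the next gene in RefSeq order. The peak at chr12:72057588-72057940 followed with 28.8 and a fold over input of 18.6.

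Most members were far weaker than the leading peaks. Of the 28 peaks, 20 had a signal under 30, between 8.87 and 28.8, where the tag threshold of the Ishikawa call was 2.56. Over all 28 peaks, the fold over input was at least 8 in 12, and its 95% exact interval lay wholly above the required fold of 4 in 12. The fold over the local region was at least 8 in 10. Members exceeded the median signal of the whole Ishikawa list, 9.69, in 24 of 28 cases, but its median fold over input, 7.8, in 13 and its median fold over the local region, 6.93, in 12. The median signal was 15.0 in the locus and 14.3 over the 2912 other Ishikawa peaks of chromosome 12.

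**Figure D3:**
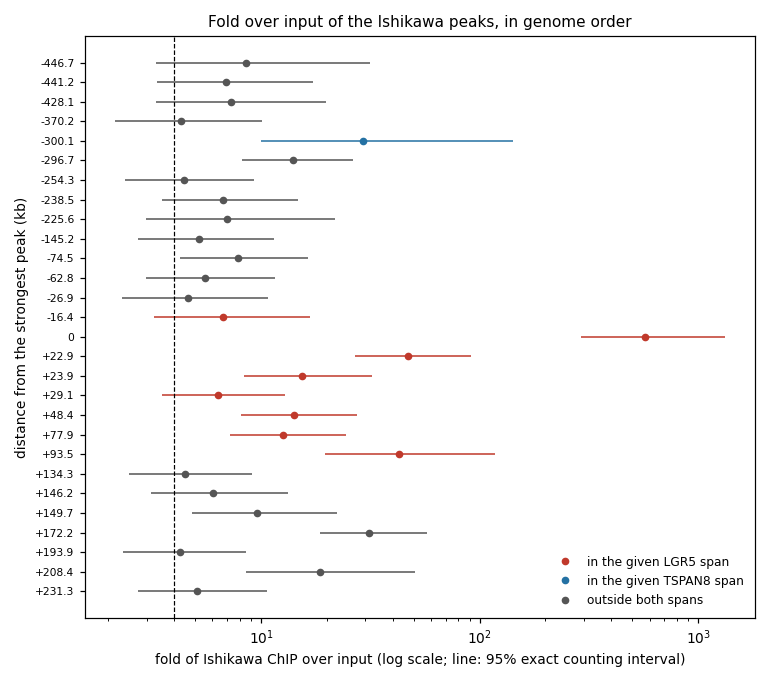
Points give the fold of Ishikawa ChIP over pooled Ishikawa input for the 28 peaks of the locus, from top to bottom in genome order and labelled by distance in kb from the strongest peak; lines are 95% exact counting intervals and the dashed line is the required fold of 4. In 12 peaks the interval lies above 4. The strongest peak, at 571, was chosen by a score from the same ChIP tags, so its place here is a description only.

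Ishikawa input averaged 8.89 tags per peak in the locus, 7.87 in the rest of chromosome 12 and 5.31 on the other autosomes. The ratio of the locus to the rest of chromosome 12 was 1.13 (95% exact interval 0.993 to 1.28), and to the other autosomes 1.68 (1.47 to 1.90). These intervals cover counting error of the summed input tags only, not the spread between peaks. Within the locus, input averaged 6.25 tags per peak before TSPAN8, 3 at the single peak of the TSPAN8 span, and 9.25 to 9.86 in the segments from 71.55 Mb onwards. The local background, computed as signal over fold against the local region, had a median of 2.48 tags per 10000000 in the locus and 1.97 in the rest of chromosome 12. The part of these levels in the signal and number of members was not tested.

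Hec1A had no peak in the window, and 0 of the 28 Ishikawa peaks had a partner. Over the whole Ishikawa list 12.8% of peaks had a partner, and on chromosome 12 13.0%. Among the 1050 Ishikawa peaks with a signal of at least 100, 48.1% had one, while the 3 such peaks of the locus, at 1179.2, 145.9 and 113.2, had none. Of the 10 Ishikawa peaks of highest signal, 5 had a partner. Lack of a partner helped to choose the locus, so these shares stand beside its count and no test is drawn from them.

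The Hec1A peaks nearest to the window lay at chr12:71209745-71209999 on one side and chr12:72234345-72234599 on the other, 1025 kb apart, with 34 Ishikawa peaks between them. Of the 13225 gaps between neighbouring Hec1A peaks in the genome, 452 were at least as long and 67 held at least as many Ishikawa peaks, up to 94. On chromosome 12, 18 of 613 gaps were at least as long and 3 held at least as many, this gap included in each count. The strongest Ishikawa peak was 385.1 kb from the nearer of the pair. At chr12:72234345-72234599, 34.5 kb beyond the window, both lines had a peak, with a signal of 23.2 in Ishikawa and 10.9 in Hec1A. A second shared site lay before the window at chr12:71127212-71127466, with 124.6 in Ishikawa and 23.1 in Hec1A, and one more at chr12:71139737-71139991, with 9.51 and 2.73 in the same order. The Hec1A peak at chr12:71209745-71209999 had a signal of 3.77 and no Ishikawa partner, as the nearest Ishikawa peak was 11.3 kb away. Hec1A peaks were thus listed on both sides of the locus, and 30 lay within 5 Mb of the window.

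A site without a listed Hec1A peak is not shown to be unbound there. The approximate share of ChIP tags lying in peaks, per the file headers, was 9.66% in Ishikawa and 1.12% in Hec1A. The part of this difference in the missing Hec1A peaks was not tested. Hec1A peaks needed a tag number of 32, which is 2.24 per 10000000 tags, and had to pass filters on the local region and on clonality, which together removed 83.4% of the 80046 putative Hec1A peaks. The list does not tell whether a site fell short of the tag number or was removed by a filter, and Hec1A tag numbers at the Ishikawa sites were not analysed here. At the 505 shared sites with an Ishikawa signal of at least 100, the median ratio of Ishikawa to Hec1A signal was 8.93 (quartiles 5.59 and 18.6), with peak widths of 353 bp in Ishikawa and 254 bp in Hec1A. Ishikawa peaks also had to exceed input, whereas the recorded Hec1A command names none and its header counts no peak removed on input. However, the authors named that list as called against inputs, and this conflict with its header was not resolved here.

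Set beside other stretches of the genome, the locus was far along in Ishikawa signal and less so in the number of peaks. Of 3765 windows of 800 kb tiled over the genome, with a median of 15 Ishikawa peaks, 231 (6.14%) held at least 28. Its summed Ishikawa signal was 1963, the fifth highest, against a median of 198.3. The strongest peak made up 60.1% of that sum, and without it the sum of 783.8 would rank 141. Another window of chromosome 12, at 52.2 to 53.0 Mb, had a higher sum of 2078, with 26 Ishikawa and 9 Hec1A peaks. These medians and ranks are over all chromosomes, and windows of chromosome 12 were not ranked apart. Ishikawa peaks had a median signal of 14.3 on the rest of chromosome 12, against 9.6 on the other autosomes. Among the 231 windows, the median number of Hec1A peaks was 7, and 8 windows, the locus included, held none. The windows most like it by that measure, with at least 28 Ishikawa peaks and no Hec1A peak, and with the next highest summed signals to either side, were at 25.0 to 25.8 Mb of chromosome 14 with 30 peaks and a sum of 2190, and at 121.8 to 122.6 Mb of chromosome 6 with 38 peaks and a sum of 1255. This likeness was looked up after the values were seen, over 1 list per line. Nearby windows of chromosome 12 also lacked Hec1A peaks. The next tiled windows after the locus held 2, 0, 1 and 0 of them in order, the last with 24 Ishikawa peaks. Those before the locus, going outward, held 5, 0 and 5 Hec1A peaks.

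**Figure D4:**
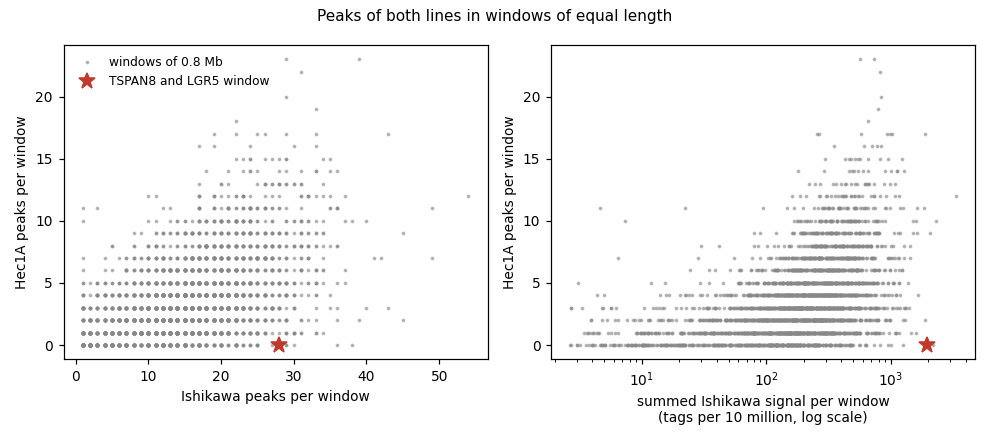
Each point is a window of 0.8 Mb with at least 1 Ishikawa peak, with its number of Hec1A peaks against its number of Ishikawa peaks (left) and against its summed Ishikawa signal in tags per 10000000 on a log axis (right); the star is the TSPAN8 and LGR5 window. The star sits at 28 Ishikawa peaks and a sum of 1963 with 0 Hec1A peaks, and 1 window without a Hec1A peak has a higher sum.

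At the edges of the window, 71.4 and 72.2 Mb, the nearest peaks inside and outside all had signals under 30. The first peak inside, at chr12:71402482-71402834, had a signal of 8.87. The last outside before it, at chr12:71388252-71388604, had 13.3, and the one before that 17.4. On the other side the last peak inside, at chr12:72080517-72080869, had 13.1. The first outside, at chr12:72233321-72233673, had 21.5, and the next 23.2. The outside peaks were thus stronger than the edge peaks inside. Within the window neighbouring peaks were a median of 16.4 kb apart, with spacings of 0.917 to 80.4 kb, against a median of 29.2 kb over the Ishikawa list.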

How the data were processed

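FOXA1 ChIP and input libraries of Ishikawa and Hec1A were made with TruSeq or ThruPLEX kits, per the labels. The submitters' processing notes name the build hg19 and the tools HOMER 4.7.2, SAMtools 1.3.1 and Bowtie 1.1.2. Per the file headers, peaks were called with findPeaks in factor mode on pooled ChIP tags at a false discovery rate of 0.001, with a fold of 4 over the surrounding 10000 bp and, in Ishikawa, over pooled input. The deposited signal is tags per 10000000. The deposited score is a tag number, the focus ratio a fraction, and the folds are ratios, all the authors' own values per peak.

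Peaks were placed by their centres. ChIP tags were recovered from signal and total tags, to the rounding of the signal. Folds over input received exact (Clopper-Pearson) intervals with SciPy 1.17.1, which cover counting error only. Without replicates no test was run. The window and lists were chosen with earlier results of these data known. Peaks named are the 10 of highest score, those nearest a gene start and those at the window's edges; others were named after their values were seen. Planned values for other Wnt and tetraspanin genes are not given, as no hg19 annotation was used here. Partner and window procedures were tested on simulated lists.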

Additional observations from a re-analysis of the deposited data

How the results depend on the processing

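Of 19 alternatives, 11 left the value within 1.5 times, or within its counting interval for input. The number of Ishikawa peaks in the window was 10 with a local fold of 8 or more and 12 with an input fold of 8 or more. Between 71.52 and 71.98 Mb only, the stretch from TSPAN8 to LGR5, it was 17. Each of these lower numbers follows from the stricter limit. With centres up to 1 kb or 10 kb apart allowed as partners, the number of Ishikawa peaks with a Hec1A partner was still 0. The other alternatives for Hec1A peaks and partners are stricter than the reported setting, so a count of 0 could not change under them. The strongest peak ranked 2 by normalized tag count, 17 by fold over input and 184 by fold over the local region, in place of 1 by score. The window ranked 190 of 3765 by peak number and 5 by summed tag count. Its summed tag count was 783.8 without the strongest peak, an alternative chosen after seeing the data. No paired analysis was possible because each line has 1 list called on pooled libraries, and no library could be left out. Depth limits the fold over input, which rests on 3 to 14 input tags per peak.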

Other observations

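The locus and its flanks had a like median signal in Ishikawa, but not a like highest one. The median was 15.0 and the highest signal 1179.2 in the TSPAN8 and LGR5 window, against 14.8 and 220.6 over the 247 further Ishikawa peaks within 5 Mb on either side. Over the flanks 30 Hec1A peaks were listed, with a median signal of 4.54 and a highest of 23.1. That highest one is the site at chr12:71127212-71127466, on the side of the window where PTPRR, a receptor-type tyrosine phosphatase, is the next gene before TSPAN8 in RefSeq order. In Ishikawa the same site had a fold over input of 96.6.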
